A study of Homo sapiens with 9 samples.

Results

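A group of 8 genes was followed across 9 RNA sequencing libraries from U2-OS, a human cell line grown from an osteosarcoma: the transcription factor genes GATA2, GATA3, GATA4 and GATA6, the antisense transcript GATA6-AS1, the paralogous genes GREB1 and GREB1L, and LRRC17. They were 8 of the 60609 genes counted, matched by Ensembl identifier, and the counts on the strand of each gene were used. GATA6, GREB1L and LRRC17 were chosen by their counts in clone A4, where they were nearly silent, and the others as their relatives, so every comparison of these genes that involves clone A4 is given as a description without a test. The comparison of clone A1 with the vector clones did not use clone A4 and was tested.

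GATA proteins are zinc finger transcription factors that bind DNA sites containing the letters GATA. GATA2 and GATA3 are best known from blood cells, with GATA3 also active in breast and kidney epithelium, whereas GATA4 and GATA6 are known from heart and endoderm. GATA6-AS1 is a long non-coding RNA transcribed away from GATA6 on the other strand. GREB1 is an early target gene and cofactor of the estrogen receptor in breast cancer cells, and its paralog GREB1L is required for kidney and inner ear development. LRRC17 encodes a secreted leucine-rich repeat protein described as an inhibitor of osteoclast formation downstream of RANKL, the cytokine that osteoblasts use to induce bone-resorbing cells.

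The vector group held 3 libraries, 1 from each of 3 clones made with an empty vector. Clone A1 and clone A4 carry extra NCBP2, a cap-binding protein of the nucleus that works with NCBP1, and each clone gave 3 libraries. Libraries bear the letters A, B and C within a group, and the values of a group are given in that order. All 9 libraries came from the same line in the same medium, and the labels name no treatment. The 3 libraries of an NCBP2 clone share that clone. What is particular to the clone and what follows from NCBP2 therefore cannot be told apart in clone A1 or in clone A4. The labels do not say whether libraries of a clone came from separate cultures, so the spread within an NCBP2 clone may be technical. The p-values rest on a spread shared over all 9 libraries, which mixes this with the spread between vector clones. They do not measure the spread between NCBP2 clones. The labels' protocol removes ribosomal RNA, while the labels' molecule field names polyadenylated RNA.

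Total reads per library ran from 80341579 to 111784333 and counts on genes from 29234022 to 50554080. Clone A1 replicate A had the fewest genes with a count, 21823, against 25390 to 29787 in the other 8 libraries. NCBP2, the overexpressed gene, stood at 90.6 to 98.4 CPM (the reads of a gene relative to all gene reads of its library, with TMM scaling) in the vector libraries, 299 to 348 in clone A1 and 456 to 1035 in clone A4. Of the 13 osteoblast and mesenchymal markers, 7 were above 1 CPM in all vector libraries, among them RUNX2 (200 ± 30.2 CPM, SD, n = 3) and COL1A1. SP7, BGLAP, IBSP and TWIST1 were at 0 in all vector libraries, and COL1A2 and SPP1 averaged 0.554 and 0.701 CPM. The 13 markers together gave 5757 to 7073 CPM in vector, 4153 to 5311 in clone A1 and 5072 to 6100.1 in clone A4. Most of this came from VIM, SPARC, COL1A1 and FN1. The 12 markers of epithelial, blood and endothelial cells gave 122 to 219 CPM in vector, 81.3 to 152 in clone A1 and 78.3 to 106 in clone A4, mostly from KRT8 and KRT18, with CD3E and HBA1 at 0 in all libraries. The part of any of these in the results that follow was not tested.

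GATA6 (ENSG00000141448.10) lies on chromosome 18 of GRCh38, from 22169589 to 22202528 on the plus strand, and GREB1L (ENSG00000141449.14) lies upstream of it on the same strand, from 21242232 to 21526112. The end of GREB1L and the start of GATA6 are 643 kb apart. GATA6-AS1 runs on the minus strand from 22164886 to 22169878 and overlaps GATA6 by 290 bases. LRRC17 (ENSG00000128606.13) is on the plus strand of chromosome 7, from 102913000 to 102945111, and sits inside FBXL13, which spans 102811189 to 103074839 on the minus strand. The other members are on separate chromosomes: GREB1 on 2, GATA2 on 3, GATA4 on 8 and GATA3 on 10.

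The 250 bases before the annotated starts of the 3 genes picked for their low counts in clone A4 are shown, and the windows differ widely in CG content. The sequences are RefSeq's, on GRCh38.p14, written 5′ to 3′ on the strand of the gene, with CG dinucleotides in capitals. The windows are chr18:22169339-22169588 for GATA6, chr18:21241982-21242231 for GREB1L and chr7:102912750-102912999 for LRRC17, all on the plus strand.
GATA6: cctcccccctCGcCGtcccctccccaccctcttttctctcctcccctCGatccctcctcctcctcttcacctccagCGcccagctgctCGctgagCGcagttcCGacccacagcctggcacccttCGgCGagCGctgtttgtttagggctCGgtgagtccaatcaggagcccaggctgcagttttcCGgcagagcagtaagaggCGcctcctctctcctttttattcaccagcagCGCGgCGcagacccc
GREB1L: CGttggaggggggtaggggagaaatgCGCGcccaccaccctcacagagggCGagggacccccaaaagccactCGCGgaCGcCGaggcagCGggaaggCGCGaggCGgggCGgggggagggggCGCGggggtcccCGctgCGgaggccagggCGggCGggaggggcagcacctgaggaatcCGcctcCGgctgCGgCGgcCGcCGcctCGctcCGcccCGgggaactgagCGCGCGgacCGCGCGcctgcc
LRRC17: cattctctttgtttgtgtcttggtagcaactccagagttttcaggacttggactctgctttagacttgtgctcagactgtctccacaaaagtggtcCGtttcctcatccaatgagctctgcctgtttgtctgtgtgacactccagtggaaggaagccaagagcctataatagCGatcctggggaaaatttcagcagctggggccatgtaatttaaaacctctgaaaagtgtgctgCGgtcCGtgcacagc
GREB1L had 34 CG dinucleotides and 78.8% G or C, with 93.2% of the 35116 RefSeq promoter windows of this length holding fewer CG. GATA6 had 16 CG dinucleotides and 64.4% G or C, against a median of 11 and 58% over the windows. LRRC17 had 4 CG dinucleotides and 48% G or C, and 29.3% of windows held fewer. GATA6-AS1, read on the minus strand, had 23 CG dinucleotides and 74.4% G or C. The windows of the 6 members with an entry were searched on both strands for a GATA site, which was AGATAA, its variant that ends in G (AGATAG), or TGATAA, with its own variant that ends in G (TGATAG). None of the 6 had a match, while 22.3% of all windows did. The box TATAAA, which 6.80% of windows hold on either strand, was in none of them either. Matches of these motifs may overlap one another.

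In the vector libraries GATA6 had the highest level of the 8 genes per kilobase of exon. Expressed as RPKM, which is CPM per kilobase of exon, the levels were 3.62 ± 0.517 for GATA6, 2.38 ± 1.63 for LRRC17, 1.97 ± 0.639 for GATA3, 1.92 ± 0.572 for GATA4 and 1.75 ± 0.105 for GREB1L (SD, n = 3). The range of GATA6 (3.03 to 3.98) lay above those of GATA3, GATA4 and GREB1L, which reached 2.69 at most. It overlapped that of LRRC17 (0.821 to 4.07). The ranges of LRRC17, GATA3, GATA4 and GREB1L overlapped one another, so the order among them was not larger than the spread between clones. GREB1 was lower at 0.454 ± 0.0910 RPKM, with no overlap with GREB1L, and GATA6-AS1 (0.0563 ± 0.0553) and GATA2 (0.0426 ± 0.0235) were at the bottom. These were moderate to low levels, since GATA6 stood above 62.1% of the tested genes in vector and GATA2 above 2.28%.

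**Figure D1:**
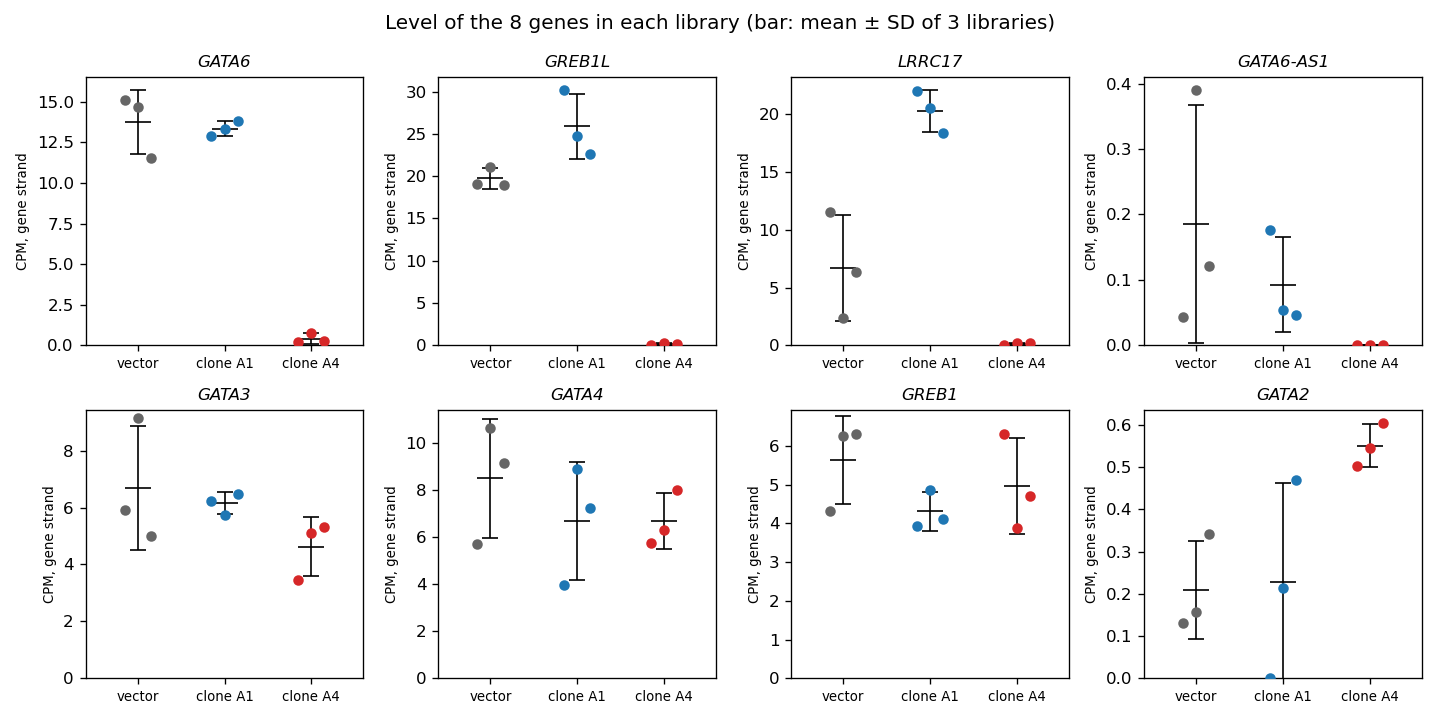
Level of each of the 8 genes in each of the 9 libraries, in CPM on the strand of the gene (linear axes from 0, horizontal bar and whiskers: mean ± SD of 3 libraries per group). GATA6, GREB1L and LRRC17 stood below 1 CPM in the 3 clone A4 libraries and above 2 CPM in the other 6, whereas GATA3, GATA4 and GREB1 had overlapping or nearly overlapping groups and GATA2 was under 1 CPM in all libraries.

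GATA6 RNA was present at a similar level in all vector and clone A1 libraries and almost gone from clone A4. Vector gave 698, 752 and 472 counts, clone A1 gave 366, 495 and 587, and clone A4 gave 9, 34 and 13. In CPM the vector libraries were at 15.1, 14.7 and 11.5, those of clone A1 at 12.9, 13.3 and 13.8, and those of clone A4 at 0.189, 0.773 and 0.291. Clone A1 lay within the range of the vector clones, and every clone A4 library lay far below both groups. Clone A1 and vector differed by a log2 fold change of -0.05 (SE 0.361, edgeR's quasi-likelihood test with Benjamini-Hochberg adjustment over 21682 genes, adjusted p = 0.988). From summed counts, vector was 33.8-fold above clone A4 (95% exact interval 25.9 to 44.9, counting error only) and clone A1 was 32.6-fold above it (24.95 to 43.4). In the fit, clone A4 had log2 fold changes of -5.04 against vector and -4.99 against clone A1, each with an SE of 0.446. In bulk RNA, fewer cells that hold a transcript and less of it per cell cannot be told apart.

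GREB1L showed the same pattern with a deeper loss. Vector had 882, 1081 and 778 counts, clone A1 had 858, 922 and 963, and clone A4 had 2, 10 and 5. Vector stood at 19.1, 21.1 and 19.0 CPM, clone A1 at 30.2, 24.8 and 22.6, and clone A4 at 0.0420, 0.227 and 0.112. All clone A1 libraries were above all vector libraries, and clone A4 was near 0. The summed counts put vector 159-fold (95% exact interval 99.0 to 273) and clone A1 203-fold (127 to 349.6) above clone A4, with counting error only. In the fit, clone A4 was lower by a log2 fold change of -7.26 (SE 0.415) against vector and -7.65 (SE 0.420) against clone A1. The excess of clone A1 over vector was small, a log2 fold change of 0.39 (SE 0.288), and did not pass the test (edgeR, unadjusted p = 0.199, adjusted p = 0.804).

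LRRC17 varied more between the vector clones than either of these genes did. The vector libraries, which are separate clones, had 531, 119 and 259 counts or 11.5, 2.32 and 6.32 CPM. Clone A1 had 624, 763 and 780 counts, or 22.0, 20.5 and 18.3 CPM, and clone A4 had 3, 9 and 9 counts, or 0.0629, 0.205 and 0.202 CPM. The 3 groups did not overlap, with clone A1 highest and clone A4 lowest. Clone A1 was above vector by a log2 fold change of 1.59 (SE 0.470), which missed the threshold over all genes (edgeR, unadjusted p = 0.00522, adjusted p = 0.348). With no filter on low counts the same contrast, 1.58, had an adjusted p of 0.00125 by edgeR, and this was 1 of the 16 alternatives tried and the one that called it. From summed counts, vector was 42.6-fold (95% exact interval 27.7 to 69.2) and clone A1 130.0-fold (84.9 to 210.5) above clone A4. These intervals cover counting error only and leave out the wide spread between the vector clones. The log2 fold changes of clone A4 were -5.41 (SE 0.610) against vector and -7.00 (SE 0.638) against clone A1.

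GATA6-AS1 was scarce in all groups and too low to enter the test. Vector had 2, 20 and 5 counts of it, clone A1 had 5, 2 and 2, and the 3 clone A4 libraries had none. Vector replicate B held most of the vector counts. Set against an assumed floor of 3 counts over the clone A4 group, which is 0.0220 CPM, vector was 8.86-fold and clone A1 3.78-fold higher. The lower 95% bounds of these ratios were 6.73 and 2.49, from counting error only. They leave out the spread between vector clones.

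The other GATA genes and GREB1 were expressed in clone A4 at levels near those of the other clones. For GATA3, vector had 5.91, 9.13 and 5.00 CPM, clone A1 had 6.23, 5.73 and 6.49, and clone A4 had 3.44, 5.10 and 5.33. Clone A4 overlapped vector and lay just under clone A1, with log2 fold changes of -0.53 (SE 0.310) and -0.41 (SE 0.311). GATA4 had 5.72, 10.7 and 9.17 CPM in vector, against 3.98, 8.90 and 7.27 for clone A1 and 5.75, 6.30 and 8.04 for clone A4, and all 3 groups overlapped. GREB1, the paralog of GREB1L, had 4.33, 6.26 and 6.32 CPM in vector, with 3.94, 4.87 and 4.11 for clone A1 and 6.32, 3.89 and 4.70 for clone A4. These groups overlapped as well, and clone A4 differed from vector by a log2 fold change of -0.18 (SE 0.303), where GREB1L differed by -7.26.

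GATA2 was the member that leaned the other way in clone A4, at a very low level. Vector had 6, 8 and 14 counts, clone A1 had 0, 8 and 20, and clone A4 had 24, 24 and 27. Clone A4 thus stood at 0.504, 0.546 and 0.605 CPM, with at most 0.342 in a vector library and 0.470 in one of clone A1. Clone A4 lay above both groups without overlap, and its log2 fold changes were 1.39 against vector and 1.23 against clone A1, each with an SE of 1.12. Against clone A1 the value was 0.68 without clone A1 replicate A and 2.28 without clone A1 replicate C. Groups with clone A4 on top made up 6.2% of all tested genes against vector and 7.92% against clone A1. Groups with clone A4 at the bottom, as for GATA6, GREB1L and LRRC17, made up 5.86% and 5.72%, and nothing is read from the members' own count, since clone A4 values chose them.

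Between clone A1 and vector, where no clone A4 value enters, 0 of the 7 tested members passed edgeR's adjusted p threshold of 0.05, and LRRC17 was the 1 member with an unadjusted p under 0.05. Over all 21682 tested genes 0.0646% passed. GREB1L and LRRC17 were the 2 members whose clone A1 libraries all lay above all vector libraries, a pattern that 6.18% of the tested genes had. GATA3, GATA4, GREB1 and GATA2 differed by log2 fold changes of -0.12 (SE 0.310), -0.34 (SE 0.346), -0.39 (SE 0.305) and 0.16 (SE 1.12), with adjusted p of 0.952, 0.862, 0.814 and 0.987.

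A near-silent state in clone A4 was rare among genes with a solid level elsewhere, which is how these genes came to be picked. Of 9828 genes with at least 5 CPM in all vector and clone A1 libraries, 2 (0.0204%) were at most 1 CPM in all clone A4 libraries, and both were members, GREB1L and GATA6. LRRC17 fell outside this count because vector replicate B was at 2.32 CPM. The highest clone A4 library divided by the lowest of the other 6 libraries was 0.0120 for GREB1L, 0.0672 for GATA6 and 0.0882 for LRRC17. Among 13262 genes with at least 1 CPM in all 6 of those libraries, the long non-coding RNA LINC02074 came before them at 0, and the next gene after them was the interferon-induced gene IFI44L at 0.423. This order was worked out after the values were seen, and it describes the choice of the members.

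**Figure D2:**
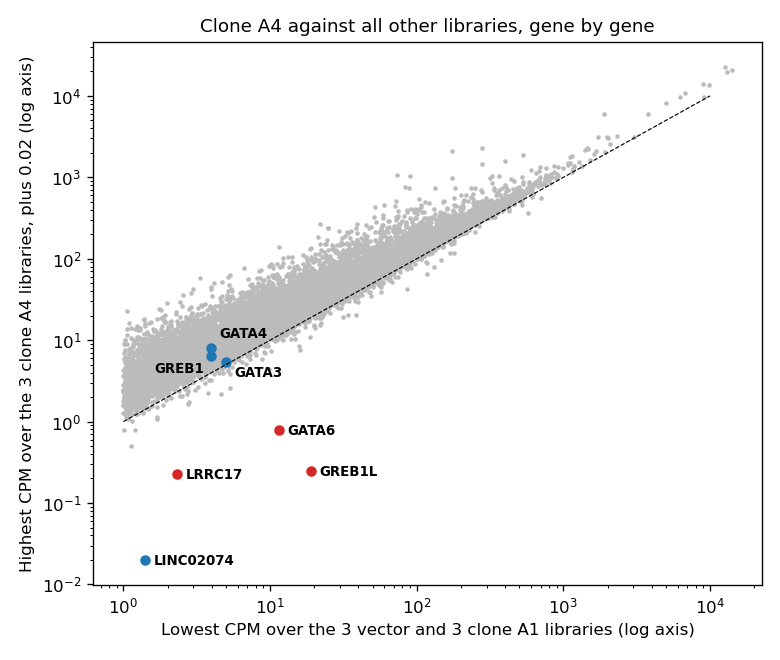
Each point is 1 of 13262 genes, with its lowest CPM over the 3 vector and 3 clone A1 libraries on the x axis and its highest CPM over the 3 clone A4 libraries, plus 0.02 so that 0 can be drawn, on the y axis (both log axes, dashed line: equal values). GREB1L, GATA6, LRRC17 and LINC02074 lie far below the line, while GATA3, GATA4 and GREB1 lie on or above it.

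Counts on the opposite strand came from other reads than those that chose the members, and are given as values without a test because clone A4 is the clone that chose them. At GREB1L the opposite strand held 300, 211 and 335 counts in vector, then 155, 186 and 219 for clone A1 and 292, 142 and 152 for clone A4. Mean CPM on it was 6.26 ± 2.04 for vector, 5.20 ± 0.231 for clone A1 and 4.25 ± 1.62 for clone A4 (SD, n = 3), and clone A4 overlapped both groups. Counts were thus present on that strand in clone A4, where the strand of GREB1L had 2 to 10. GATA6 had 0 to 5 opposite-strand counts in every library.

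At LRRC17 the opposite strand, which is the strand of FBXL13, was highest in the clone where LRRC17 was lowest. Vector had 111, 66 and 151 counts there, clone A1 had 54, 76 and 63, and clone A4 had 401, 275 and 309. Mean CPM was 2.46 ± 1.20 for vector, 1.81 ± 0.292 for clone A1 and 7.20 ± 1.10 for clone A4 (SD, n = 3). All 3 clone A4 libraries, at 6.26 to 8.41 CPM, were above the other 6, which reached 3.68 CPM at most. Without regard to strand, LRRC17 had 206, 193 and 156 counts in clone A4 and 145 to 568 in vector, and its log2 fold change against vector was -0.95 where the stranded counts gave -5.41. In clone A4 these counts were fewer than those of the opposite strand alone, so they are not the sum of both strands. GREB1L without regard to strand gave -2.61 where the stranded counts gave -7.26.

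**Figure D3:**
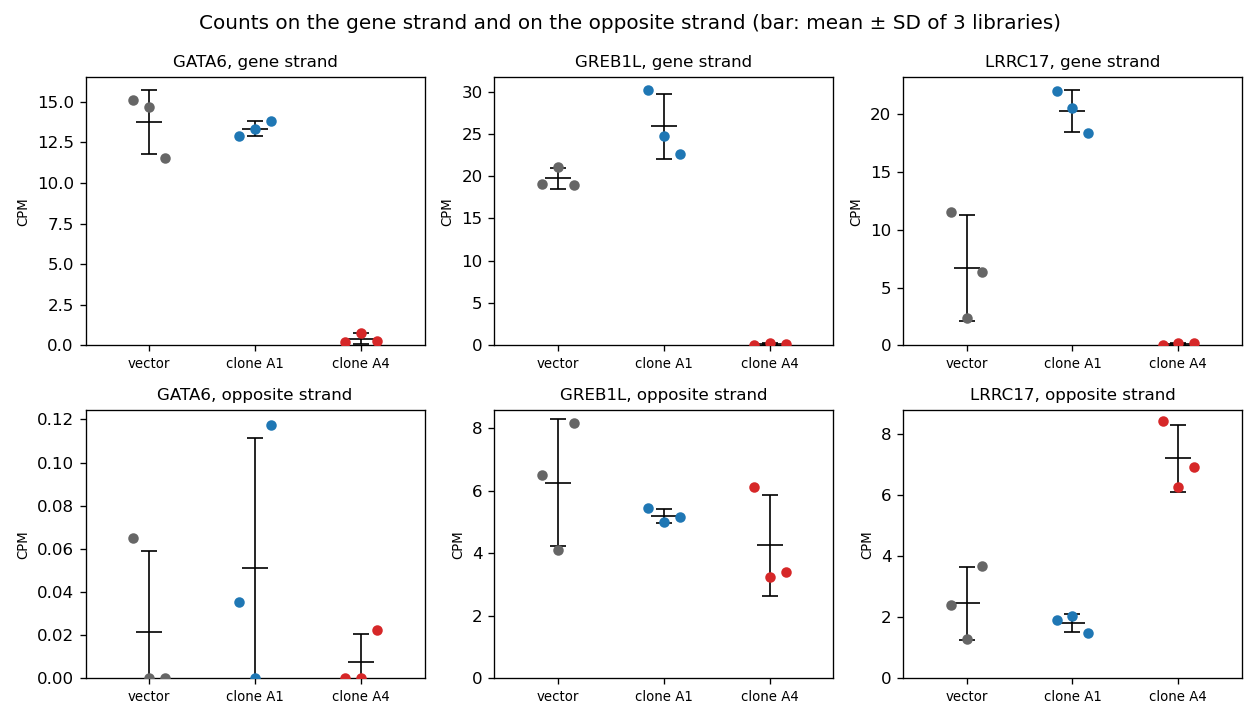
CPM on the strand of the gene (top) and on the opposite strand (bottom) for GATA6, GREB1L and LRRC17 in each library (linear axes from 0 with their own ranges, bar and whiskers: mean ± SD of 3 libraries). The opposite strand of GREB1L stayed at 3.23 to 6.13 CPM in clone A4, and that of LRRC17 was 6.26 to 8.41 CPM there, above the other 6 libraries.

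FBXL13, the F-box gene that encloses LRRC17, had its highest levels in the 3 clone A4 libraries without passing the threshold. Reads on the opposite strand of LRRC17 may be counted for FBXL13 as well, so the values of FBXL13 are not a separate observation. Vector had 15.8, 10.9 and 16.3 CPM, clone A1 had 14.3, 6.45 and 7.83, and clone A4 had 34.4, 25.5 and 25.5. Clone A4 against vector gave 0.99 (log2, SE 0.305, edgeR adjusted p = 0.514) and against clone A1 1.58 (SE 0.311, adjusted p = 0.0945). These passed the threshold in 1 and 6 of 16 alternatives, with the smallest adjusted p at 0.0281 and 1.64e-05. NFE4, a gene for a fetal globin regulator that also lies inside FBXL13 but on the strand of LRRC17, at 102973483 to 102988856, rose in clone A4 against clone A1. Mean CPM was 1.58 ± 0.422 for vector, 0.488 ± 0.194 for clone A1 and 3.69 ± 1.05 for clone A4 (SD, n = 3). Clone A4 against clone A1 gave 2.93 (log2, SE 0.476, edgeR adjusted p = 0.0336), with all 3 clone A4 libraries above all clone A1 libraries. Neither clone passed the test against vector (1.22 for clone A4, adjusted p = 0.681, and -1.71 for clone A1, adjusted p = 0.308). The NFE4 call held in 8 of 16 alternatives, with adjusted p from 4.7e-07 to 0.215, and leaving out any 1 library other than vector replicate B or clone A1 replicate A ended it.

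NFE4 was the 1 gene called among the 31 tested genes that start within 1.5 Mb of LRRC17, where 0.161% of all tested genes were called in clone A4 against clone A1. None of the 31 was called against vector by edgeR, where 0.115% of all tested genes were. An unadjusted p under 0.05 was found for 2 of the 31 against vector and 5 against clone A1, with 5.25% and 6.63% of all tested genes. Their median log2 fold change was -0.19 against vector and 0.02 against clone A1, with 0.03 and 0.04 over all tested genes. Among the better expressed genes within 0.5 Mb, the log2 fold changes of clone A4 were small and none was called: PSMC2, a proteasome ATPase subunit, was at -0.13 against vector, PMPCB, a mitochondrial processing peptidase subunit, at -0.37, ARMC10 at -0.16, NAPEPLD at -0.30, POLR2J at -0.39, ORAI2 at -0.19 and DNAJC2 at 0.02. Less expressed genes there were DPY19L2P2 (0.56), FAM185A (-0.24), LRWD1 (0.01), ALKBH4 (0.09), RASA4 (-0.85), RASA4B (-0.24), POLR2J2 (-1.16) and the 2 genes named POLR2J3 (-0.45 and 0.49), of which RASA4, RASA4B, POLR2J2 and POLR2J3 have near-identical copies and are uncertain. Among the transcripts under 1 CPM on average in vector, the non-coding RNA ENSG00000286830 was at 1.64 against vector and 2.91 against clone A1 (edgeR unadjusted p = 0.00892, adjusted p = 0.457), with all clone A4 libraries above the other 6. The pseudogene CRYZP1 was at 1.99 and -0.50, and the non-coding RNA ENSG00000279168 at 1.09 and 2.66. The pseudogenes RPL7AP39, ENSG00000224415 and RPS29P16 were at -0.24, -0.04 and -0.51 against vector, and the small nuclear RNA copy RNU6-1136P at -0.20. The lowest of the 31 values against vector was that of POLR2J2, where LRRC17 was at -5.41.

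Around GATA6 and GREB1L, the 15 tested genes that start within 1.5 Mb remained expressed in clone A4 wherever they were above trace level. None was called against vector or against clone A1 (edgeR). An unadjusted p under 0.05 was found for 2 of the 15 against vector and 3 against clone A1, with 5.25% and 6.63% of all tested genes, and their median log2 fold changes were -0.20 and -0.15. The 4 protein-coding genes between GREB1L and GATA6 all had lower means in clone A4, by values that did not pass the test, with medians of -0.55 against vector and -0.84 against clone A1. All genes of the 15 with an unadjusted p under 0.05 were among these 4. In MIB1, SNRPD1 and ABHD3 clone A4 lay below vector and below clone A1 without overlap, as in 5.86% and 5.72% of all tested genes. In ESCO1 it overlapped both. MIB1, a ubiquitin ligase of Notch signalling, was at 157 ± 45.5 CPM in vector, 170.3 ± 44.1 with clone A1 and 90.6 ± 11.5 with clone A4 (SD, n = 3). Its log2 fold changes were -0.80 (SE 0.243, adjusted p = 0.494) and -0.91 (SE 0.243, adjusted p = 0.308) against vector and clone A1. SNRPD1, a core spliceosomal Sm protein, was at -0.65 and -0.80, ABHD3 at -0.46 and -0.87, and ESCO1, an acetyltransferase of sister chromatid cohesion, at -0.22 and -0.78. In the same genes clone A1 lay at or above vector, with a median log2 fold change of 0.29 over the 4 genes between, none of them called.

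Very low transcripts in this stretch gave wide errors. CTAGE1, the tested gene next after GATA6, was at -2.09 against vector and -2.54 against clone A1 from 0.329, 0.451 and 0.0750 CPM on average in vector, clone A1 and clone A4. RN7SL233P, a pseudogene, was at 1.67 and 0.15, and a SNORA73 copy at 0.08 and 0.89.

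**Figure D4:**
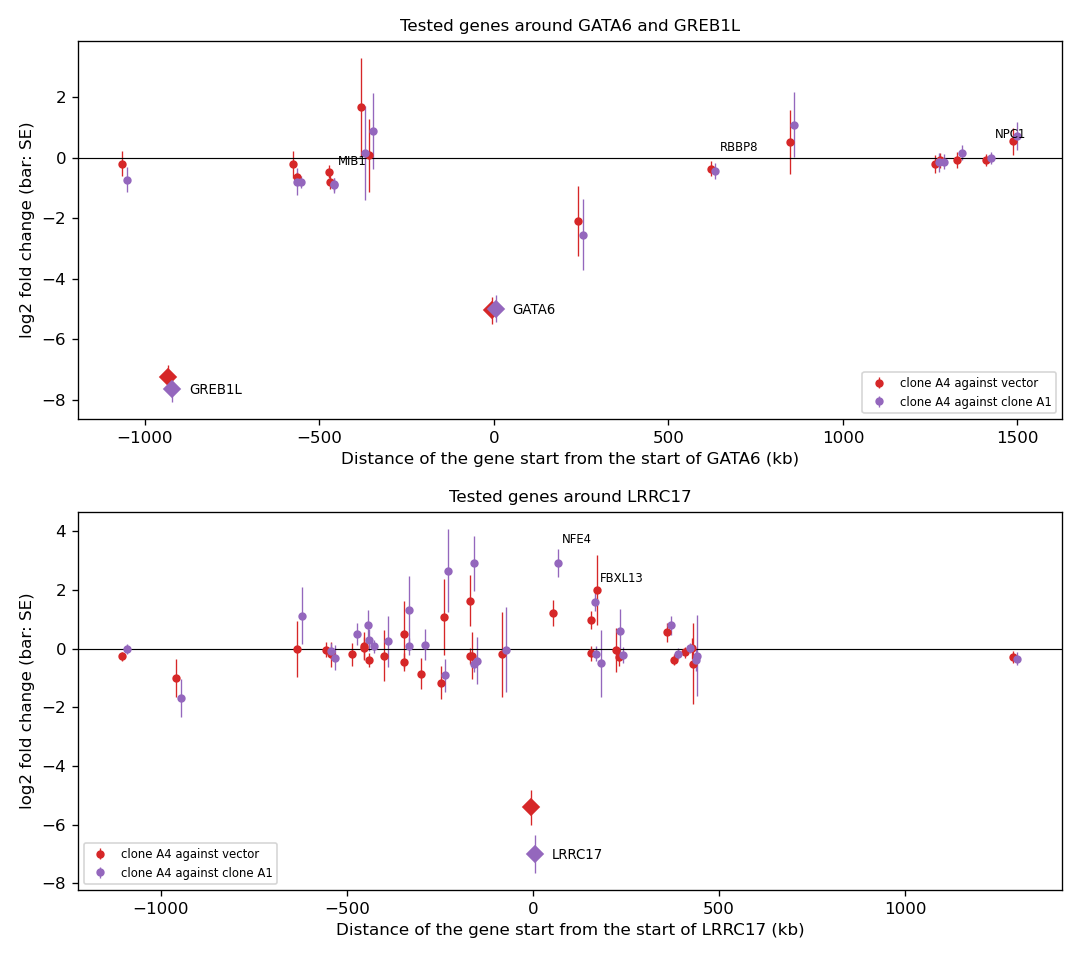
Log2 fold change of clone A4 against vector (red) and against clone A1 (purple) for tested genes by the distance of their start from the start of GATA6 (top) and of LRRC17 (bottom), with bars for 1 SE and diamonds for GREB1L, GATA6 and LRRC17. The neighbours lie from -2.54 to 2.93, and the 4 protein-coding genes between GREB1L and GATA6 all lie below 0, from -0.91 to -0.22. The 3 members lie between -4.99 and -7.65.

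The wider programmes of these genes were read from 6 lists with 131 genes, of which 93 were tested: GATA partners and other GATA-type zinc finger genes, the endoderm and heart programme, the estrogen receptor and its targets, the retinoic acid pathway, kidney and ureteric bud genes, and the RANKL pathway with osteoclast genes. No listed gene passed the adjusted threshold in any of the 3 comparisons (edgeR). With an unadjusted p under 0.05 there were 13 in clone A1 against vector, 14 in clone A4 against vector and 13 in clone A4 against clone A1, which is 14.0%, 15.1% and 14.0% of the 93, where all tested genes gave 7.51%, 5.25% and 6.63%. The median log2 fold changes over the listed genes were -0.11, 0.01 and 0.18. The lists were chosen with earlier results of these data known, so these shares only describe the lists.

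Among GATA partners no gene had a loss like that of GATA6. The 16 tested genes of that list had medians of -0.01 in clone A4 against vector and 0.12 against clone A1, and 0 of them had an unadjusted p under 0.05 in either. ZFPM2, the cofactor that binds GATA4 and GATA6 in heart, was at 7.23 ± 1.51 CPM for vector, 7.49 ± 2.41 for clone A1 and 8.61 ± 1.14 for clone A4 (SD, n = 3). GATA1 and GATA5, the remaining members of the family, were at or near 0 in all groups. The 15 tested genes of the endoderm and heart programme had a median of -0.06 in clone A4 against vector, with 4 under an unadjusted p of 0.05. Against clone A1 the median was 0.12, with 2 under it. DAB2, an endocytic adaptor of visceral endoderm, had the smallest adjusted p of this list, 0.108 in clone A1 against vector, with means of 177 ± 9.90 CPM in vector and 97.9 ± 7.40 in clone A1.

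The estrogen receptor gene ESR1, whose product drives GREB1 in breast cells, was at or near 0 in every group, at most 0.215 CPM in a library. The 13 tested genes of its list had medians of 0.16 in clone A4 against vector and -0.05 against clone A1. The kidney list, chosen for GREB1L, had medians over 19 tested genes of 0.18 in clone A4 against vector and 0.40 against clone A1. All tested genes gave 0.03 and 0.04. WNT11, a ureteric bud ligand in that list, had 0.769 ± 0.654 CPM for vector, 3.55 ± 0.495 for clone A1 and 6.21 ± 1.92 for clone A4 (SD, n = 3). It was higher in both NCBP2 clones without overlap with vector, with log2 fold changes of 2.19 (edgeR adjusted p = 0.231) and 2.997 (adjusted p = 0.0621). These passed the threshold in 4 and 5 of 16 alternatives, and without vector replicate B they were 3.17 and 3.97. The retinoic acid list had medians over 17 tested genes of -0.03 in clone A4 against vector and 0.42 against clone A1. In this list the transglutaminase gene TGM2 had 5.00, 11.7 and 5.17 CPM for vector, 4.65, 8.20 and 9.85 for clone A1 and 1.32, 2.18 and 1.81 for clone A4. All clone A4 libraries were below the other 6, with log2 fold changes of -2.04 against vector (adjusted p = 0.157) and -2.09 against clone A1 (adjusted p = 0.109).

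The RANKL list, chosen for LRRC17, had a median of 0.02 over 13 tested genes in clone A4 against vector, and 0 of them had an unadjusted p under 0.05. Against clone A1 the median was 0.23, and 2 of the 13 had one. TNFRSF11B, the gene of the RANKL decoy receptor osteoprotegerin, was lowest in clone A1, where LRRC17 was highest: it had 27.9 ± 2.79 CPM for vector, 15.1 ± 1.85 for clone A1 and 30.0 ± 4.07 for clone A4 (SD, n = 3). Clone A1 was below both other groups without overlap, by log2 fold changes of -0.88 from vector (edgeR adjusted p = 0.179) and of 0.99 for clone A4 against clone A1 (adjusted p = 0.105). Of 16 alternatives, TGM2 passed in 4 against vector and 5 against clone A1, TNFRSF11B in 2 for clone A1 against vector and 3 for clone A4 against clone A1, and DAB2 in 3 for clone A1 against vector. DAB2, WNT11, TGM2 and TNFRSF11B were chosen after their values were seen.

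The genes most like GATA6, GREB1L and LRRC17 across the 9 libraries, by Pearson's r of log2 CPM, were mostly genes with a much smaller drop in clone A4. GATA6 and GREB1L had an r of 0.994 with each other. LRRC17 had an r of 0.954 with GREB1L and 0.937 with GATA6. With the members left out, the 5 genes nearest GATA6 were ADIPOR2 (r = 0.981), RHNO1 (0.979), WNK1 (0.975), AFG3L2 (0.973) and LINC00667 (0.967). GREB1L had MLPH (0.987), WNK1 (0.974), ADIPOR2 (0.974), RHNO1 (0.970) and KLRK1-AS1 (0.970), and LRRC17 had MATN2 (0.965), MRPL51 (0.961), KDM5A (0.953), MLPH (0.944) and RASEF (0.943). Of these 11 genes, 6 are on chromosome 12 and 2 on chromosome 18. The 6 all start in 1 stretch of chromosome 12, between 280057 and 10363638. The share of all tested genes on these chromosomes was not counted. ADIPOR2, an adiponectin receptor gene, was at 166 ± 18.6 CPM for vector, 182 ± 8.63 for clone A1 and 79.9 ± 14.1 for clone A4 (SD, n = 3), a log2 fold change of -1.06 against vector where GATA6 was at -5.04. MLPH, the melanophilin gene, had no count in clone A4 but only 0.642 ± 0.144 CPM in vector. These correlations rest on 9 libraries from 5 clones and on the step between clone A4 and the rest.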

How the data were processed

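RNA of 9 U2-OS libraries was sequenced after ribosomal RNA removal, per the labels' protocols. The authors deposited raw counts of reads per gene for each library. Per the submitters' processing notes, STAR 2.7.1a and GRCh38 were used. The annotation and the counting options are not given in the sources used here. The first 4 lines of a table, for reads not given to a gene, held 44.5% to 63.6% of the reads and were left out of totals and tests. Column 3 was taken as the gene strand because it held most stranded counts. The opposite strand held 5.51% to 6.42%.

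Of 60609 identifiers, 60295 matched GENCODE 44 without their version, and 49338 with it. Counts were tested with edgeR 4.0.16 in R 4.3.3 (robust quasi-likelihood, filterByExpr, TMM, 1 fit with 3 groups, Benjamini-Hochberg adjusted p under 0.05 over 21682 genes), after the script was tested on simulated data. Standard errors are the log2 fold change divided by the square root of F. CPM used TMM-scaled library totals, log2 CPM a prior count of 2, and RPKM the merged exon length. Intervals on ratios of summed counts are exact and cover counting error only, as does the floor of 3 counts, since the reads carry no molecular identifiers and some may be copies of one molecule.

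Alternatives were DESeq2 1.42.0, voom with library quality weights (limma 3.58.1), RLE in place of TMM scaling, and no filter. The others were counts without regard to strand, fits of 6 libraries, a replicate block and leaving out each library. The members and the gene lists were chosen with earlier results of these data known. Named genes are the members, listed genes past the threshold, tested genes within 0.5 Mb of GATA6, GREB1L or LRRC17 and neighbours past the threshold. The 5 tested genes most correlated with each of these 3 are named too, with members, pseudogenes and genes without a symbol left out. One neighbour of GREB1L is counted but not reported here.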

Additional observations from a re-analysis of the deposited data

Results flagged for a closer look

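For 3 genes the libraries of the NCBP2 clones lay on opposite sides of the vector libraries. How many of all tested genes had this arrangement was not counted. In the main edgeR fit clone A1 against vector passed the threshold for none of the 3, while LRRC17 and NFE4 each passed in 1 of 16 alternatives. Of all tested genes, clone A1 lay wholly above vector in 6.18% and clone A4 wholly below it in 5.86%, the order of GREB1L and LRRC17. NFE4 had the reverse order. Clone A4 lay wholly above vector in 6.2%, and the share with clone A1 wholly below it was not counted. GREB1L was above every vector library in all 3 clone A1 libraries and below every vector library in all 3 clone A4 libraries, and clone A4 differed from clone A1 by a log2 fold change of -7.65. LRRC17 had the same arrangement, with a log2 fold change of -7.00 between the clones. For GREB1L and LRRC17 the difference was not tested, because clone A4 values had picked them, and their low place in clone A4 follows from that choice. NFE4, which lies with LRRC17 inside FBXL13, differed between the clones the other way, by a log2 fold change of 2.93 that passed edgeR's test (adjusted p = 0.0336), while neither clone passed against vector.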

How the results depend on the processing

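Results were recomputed under 16 alternatives, and the loss of GATA6, GREB1L and LRRC17 in clone A4 kept its direction in all of them. Counts without regard to strand, which also hold opposite-strand reads, brought GREB1L to log2 fold changes of -2.61 against vector and -2.84 against clone A1, and LRRC17 to -0.95 and -2.36. Leaving out 1 library at a time gave -5.85 to -4.70 and -5.80 to -4.65 for GATA6, -7.99 to -6.85 and -8.37 to -7.24 for GREB1L, and -5.83 to -4.78 and -7.26 to -6.63 for LRRC17, in the same order. Between clone A1 and vector 1 member, LRRC17, was called without the filter and 0 otherwise.

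The count of 0 called list genes differed with the tool and the filter. In clone A1 against vector it was 6 with DESeq2, 3 without the filter and 7 with voom, in clone A4 against vector 2, 3 and 3, and in clone A4 against clone A1 3, 2 and 2. Without vector replicate B it was 1 in each comparison, and without any other library 0. Around GATA6 and GREB1L, clone A4 against vector had 1 called gene without the filter and 2 with voom, and clone A4 against clone A1 had 2 with DESeq2 and 1 without the filter. Around LRRC17, clone A4 against vector had 1 with voom. Clone A4 against clone A1 had 3 with DESeq2, 2 without the filter, 2 with voom, 0 in a fit of the 6 libraries compared, and 0 to 2 when 1 library was left out. The cause of these differences was not tested. The labels do not say what the letters A, B and C share, and they were not used as pairs. Same-letter correlations of deviations from the group mean ran from -0.10 to 0.18, and those between different letters from -0.27 to 0.22. With 3 libraries per group, these values cannot decide whether the letters pair the libraries. With the letter as a replicate block, the list genes called were 2 in clone A4 against vector and 1 in clone A4 against clone A1, the LRRC17 neighbours called were 2 in the latter, and GATA2 in clone A1 against vector turned to -0.15.

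Small differences between clone A1 and vector changed sign: GATA3 was 0.037 and GATA4 0.14 with voom, and with 1 library left out GATA2 ran from -0.89 to 0.72, GATA3 from -0.31 to 0.17 and GATA6 from -0.17 to 0.015. In clone A4 against vector ESCO1 ran from -0.61 to 0.10. RN7SL233P in clone A4 against clone A1 was -0.15 with voom and ran from -1.36 to 1.27, and the SNORA73 copy in clone A4 against vector from -0.70 to 0.53. Depth limits GATA6-AS1, GATA2 and the clone A4 values of the silent genes, which rest on a few counts per library.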

Other observations

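GATA6 and GREB1L lie in the first part of chromosome 18, and after their values were seen the other protein-coding genes of that chromosome with at least 1 CPM on average were read in the same fit. The 67 genes starting before 25 Mb had a median log2 fold change of -0.29 in clone A4 against vector, with 56 of them negative, and of -0.33 against clone A1, with 57 negative. In clone A1 against vector their median was -0.02, with 36 negative. The 110 genes starting after 25 Mb had medians of -0.07, -0.09 and 0.02 in the same order, with 69, 65 and 51 negative. None of these genes was called in any comparison by edgeR. The position of 25 Mb was chosen after the values were seen, and the difference between the stretches was not tested.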
